A study of Rattus norvegicus with 12 samples.

Results

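The Notch pathway genes followed here are 3 receptors (Notch1, Notch2, Notch3), 4 ligands (Dll1, Dll3, Jag1, Jag2), the DNA-binding factor Rbpj and 2 target genes (Hes1, Hey1), measured in the pituitary of fetal rats. They were taken by gene name among the non-control probes of the array files, and the names were chosen with earlier results of these data known. All 10 genes had a probe, 14 probes in all, of 30367 probes on the array and 19381 genes that could be tested. Pituitaries of Wistar rat fetuses came from gestational day 18, and each of 12 arrays held 1 RNA sample on a whole rat genome oligonucleotide array. The groups were TCDD-exposed males, control males, TCDD-exposed females and control females, with 3 arrays each. TCDD, a dioxin, acts through the aryl hydrocarbon receptor, and the series title states that the exposure was maternal. No dose and no dosing day is given in the labels, and neither pooling of pituitaries nor litter is stated. The p-values thus reflect only the spread among these 12 samples, which may be partly technical.

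Notch signalling passes between touching cells. A ligand of the Delta-like or Jagged kind on 1 cell binds a Notch receptor on its neighbour, and the receptor is cut by an Adam protease and then by gamma-secretase. The freed intracellular part enters the nucleus, joins Rbpj and a Mastermind co-activator, and switches on repressors of the Hes and Hey families. In the mouse pituitary, Notch2 and Hes1 are known from the progenitor layer around the lumen, and loss of Hes1 lets progenitors differentiate too early.

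Levels below are log2 of the background-corrected intensity minus the array's own 75th percentile, so a level of 0 is a spot at that percentile. Levels of different probes are not comparable, since each probe has its own brightness, and only the same probe is set against itself across arrays. Probe positions are on the rn4 build, as the files give them. The probes below, each given a transcript position in the array files, are shown because they are what the array measured for 6 of the members. Whether the Rbpj probe reads Rbpj or a pseudogene copy is uncertain, as set out below. Each is written 5′ to 3′ along the transcript. For Notch1, Dll3 and Rbpj the probe printed is the dimmer of 2, and the gene's level and differences were read from the other.
Notch1 (chr3:4634122-4634181, minus strand): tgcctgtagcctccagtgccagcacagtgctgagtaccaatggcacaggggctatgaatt
Dll1 (chr1:54240861-54240920, minus strand): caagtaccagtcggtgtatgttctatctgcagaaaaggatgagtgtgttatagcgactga
Dll3 (chr1:83373806-83373865, minus strand): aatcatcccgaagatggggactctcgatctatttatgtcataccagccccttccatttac
Jag2 (chr6:137910062-137910121, minus strand): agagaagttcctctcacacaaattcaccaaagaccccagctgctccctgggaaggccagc
Hey1 (chr2:95175974-95176033, plus strand): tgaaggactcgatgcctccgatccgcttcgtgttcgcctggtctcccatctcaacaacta
Rbpj (chr5:4664854-4664913, plus strand): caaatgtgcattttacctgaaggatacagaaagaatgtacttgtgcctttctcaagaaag

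Known target genes of the aryl hydrocarbon receptor separated exposed from control arrays. Ahrr, its repressor and a known target, lay between -0.22 and 0.68 on the 6 exposed arrays, against -6.26 to -4.98 on the 6 control arrays (limma, log2 difference 5.92, adjusted p = 5.12e-06). Cyp1a1 lay between -2.58 and -1.19 on exposed arrays and was not well above background on any of the 6 control arrays. The anterior pituitary lineage markers, of which 13 of 15 were measured, had means per array between -1.32 and -0.10 in exposed males, -0.36 and -0.08 in control males, -0.86 and -0.49 in exposed females, and -0.74 and 0.30 in control females. A list of sensory ganglion neuron markers (24 of 25 measured), genes of a tissue that lies beside the pituitary, split the arrays into 6 with list means of -0.68 to 0.77 and 6 with list means of -4.20 to -3.58. The 6 arrays with the ganglion signal were exposed males 1 and 2, control male 2, exposed females 1 and 3, and control female 2, so exposed groups held 4 of them. The list mean differed by 1.45 between exposed and control arrays, and the part of this signal in the differences below was not tested. Xist, Ddx3y, Eif2s3y and Kdm5d had no probe under those names, so the sex labels were not checked with them.

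None of the 10 Notch pathway genes passed the test in any comparison. In the fit over all genes (limma, Benjamini-Hochberg adjusted p below 0.05), 0 of 10 passed between TCDD and control over both sexes, where 0.0206% of all genes passed. The count was also 0 of 10 in males and in females, where 0.0103% of all genes passed in each. No member passed for a difference of the TCDD effect between males and females, where 0.0% of all genes passed and 867 genes had an unadjusted p below 0.05. Among controls, 0 of 10 passed between males and females, where 0.0103% of all genes passed. Read from each gene's brightest probe, the members' count at an unadjusted p below 0.05 was 0 in all 5 comparisons, while 6.46% of all genes passed over both sexes, 9.34% in males, 2.68% in females, 4.47% for the difference of the effect and 5.51% among controls. Over both sexes the members' median difference was -0.05, with 4 above 0 and 6 below, and the median of all genes was -0.02, with 44.2% above 0. In bulk tissue, fewer cells of a type and less RNA per cell cannot be told apart.

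**Figure D1:**
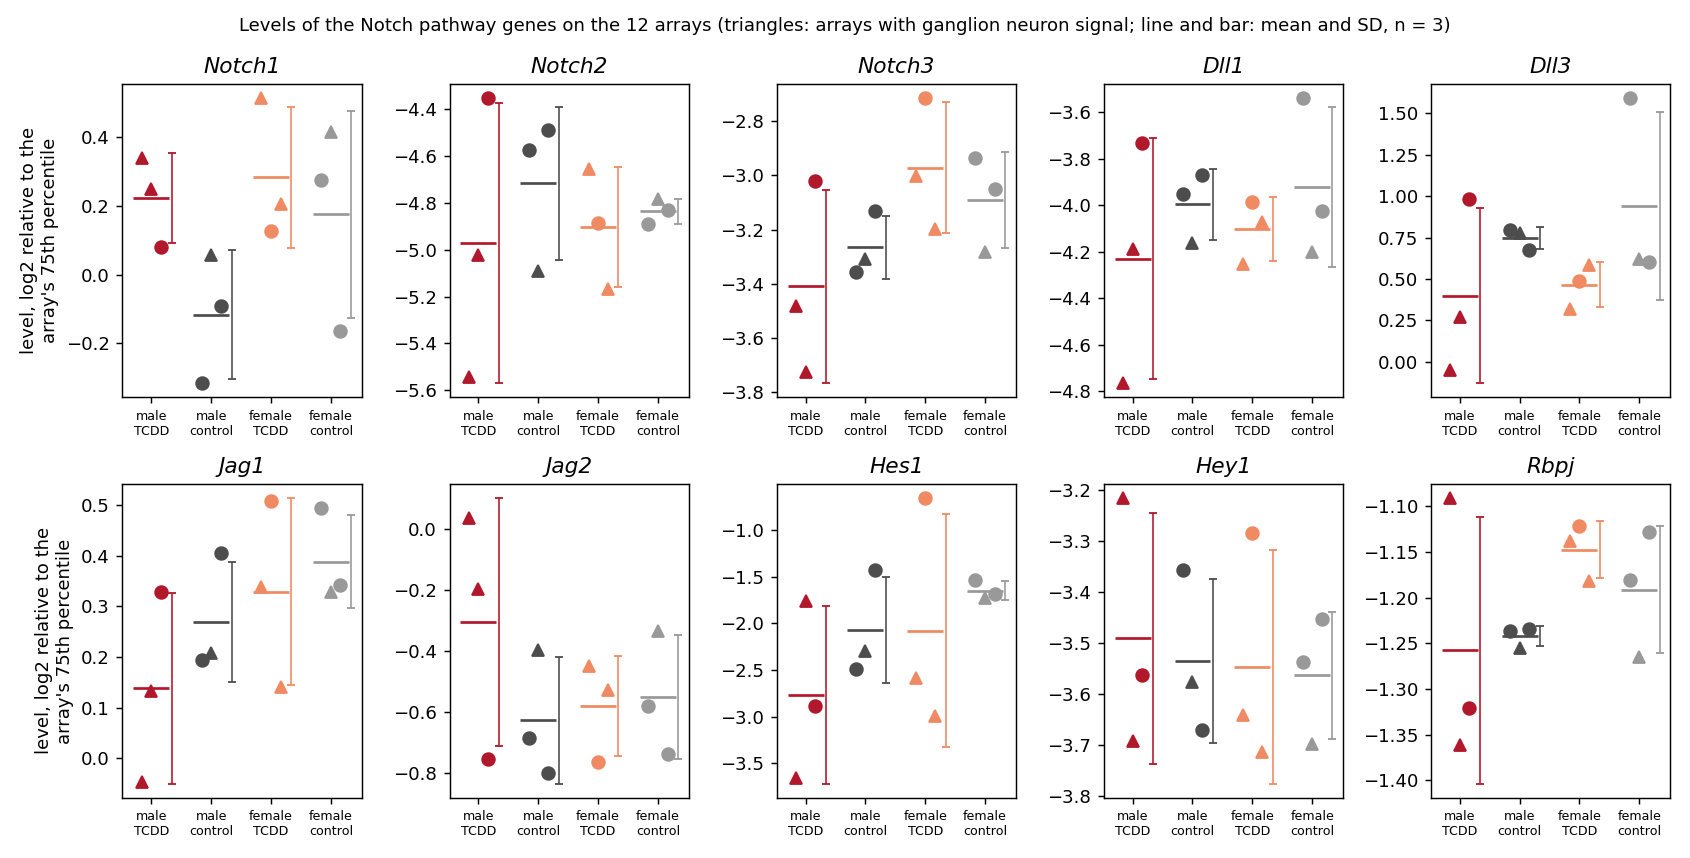
Level of each Notch pathway gene (log2 above the array's 75th percentile) on each of the 12 arrays, by group, with the group mean and SD (n = 3); triangles are arrays with sensory ganglion signal. Hes1 spreads widest, between -3.65 and -0.66, and Rbpj least, between -1.36 and -1.09.

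Among the receptors, Notch1 gave the highest difference of the 10 genes. Its level was 0.34, 0.25 and 0.08 in exposed males, -0.32, 0.06 and -0.09 in control males, 0.51, 0.13 and 0.21 in exposed females, and 0.28, 0.41 and -0.16 in control females. All 3 exposed males lay above all 3 control males, whereas the female groups overlapped. On the brightest probes, Notch1 was the only member whose male groups did not overlap, and 14.4% of all genes had male groups that did not overlap. The difference was 0.22 over both sexes (SE 0.12, 95% interval -0.04 to 0.48, limma, adjusted p = 0.670), which is 1.17-fold. It was 0.34 in males (SE 0.17, interval -0.03 to 0.71) and 0.11 in females (SE 0.17, interval -0.26 to 0.47). The second Notch1 probe was dim, well above background on 5 of 12 arrays and on 0 of 3 control males. It lay between -6.69 and -6.05 in exposed males, -7.64 and -6.97 in control males, -7.16 and -6.15 in exposed females, and -6.72 and -5.75 in control females. Its measured difference in males was 0.99 (interval 0.18 to 1.81, limma, unadjusted p = 0.0215, adjusted p = 0.507). With control males set at the lowest signal well above background where they lay below it, exposed males were 1.17-fold higher, which was not tested. The probe was well above background on 2 of 3 exposed males, and all 3 kept their measured values. In females its difference was -0.47 (interval -1.28 to 0.35), opposite in sign to the first probe. Its difference of 0.26 over both sexes thus averages opposite signs in males and females. Its TCDD effect differed between males and females by a measured 1.46, with an unadjusted p of 0.0178 and an adjusted p of 0.882 (limma). The probe was well above background on 1 of 3 exposed females, so the 1.46 rests largely on levels near background, and no bound was set for it.

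Notch2 and Notch3 gave smaller differences. Notch2 ranged from -5.54 to -4.35 in exposed males, -5.09 to -4.49 in control males, -5.17 to -4.66 in exposed females and -4.89 to -4.78 in control females. The exposed groups enclosed the control groups in both sexes, and the 3 exposed males held both the lowest and the highest of the 12 levels. Its difference over both sexes was -0.16 (SE 0.20, interval -0.61 to 0.29), with -0.02 when exposed male 1 was left out and -0.32 when exposed male 3 was. Notch3, the receptor known from mural cells of small vessels, ranged from -3.73 to -3.02 in exposed males, -3.36 to -3.13 in control males, -3.20 to -2.71 in exposed females and -3.28 to -2.94 in control females. Its difference was -0.01 over both sexes (SE 0.14, interval -0.31 to 0.29). Mural cell markers, of which all 8 were measured, differed by -0.04 between exposed and control arrays.

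Of the ligands, Dll3 had the largest difference. Dll3 is a divergent Delta-like protein known to restrain Notch in the cell that makes it rather than to activate a neighbour. Its level was -0.05, 0.27 and 0.98 in exposed males, 0.79, 0.78 and 0.67 in control males, 0.32, 0.49 and 0.59 in exposed females, and 1.59, 0.62 and 0.60 in control females. All 3 exposed females lay below all 3 control females, the nearest pair being 0.59 and 0.60, and control female 1 was the highest of the 12 arrays. Dll3 was the only member whose female groups did not overlap, and 6.96% of all genes had female groups that did not overlap. The difference was -0.41 over both sexes (SE 0.20, interval -0.87 to 0.04, limma, adjusted p = 0.670), which is 0.751-fold, with -0.35 in males and -0.48 in females. The second Dll3 probe differed by -0.37, and the residuals of the 2 probes from the group means had r = 0.99 over 12 arrays. On that probe the female groups met, with exposed female 3 and control female 3 both at -0.66. Without control female 1 the difference over both sexes was -0.25.

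Dll1, a ligand that activates receptors on neighbouring cells, had levels of -4.77, -4.19 and -3.73 in exposed males, -3.95, -4.16 and -3.87 in control males, -4.25, -3.99 and -4.07 in exposed females, and -3.54, -4.20 and -4.02 in control females. Exposed and control arrays overlapped in both sexes, with exposed male 1 lowest and control female 1 highest. The difference over both sexes was -0.21 (SE 0.18, interval -0.61 to 0.19). It was -0.07 without exposed male 1 and -0.33 without exposed male 3, and in males alone it turned to 0.03 without exposed male 1.

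The Jagged ligands, which like Dll1 activate receptors on neighbouring cells, had differences of opposite sign, and neither passed the test. Jag1 ranged from -0.05 to 0.33 in exposed males, 0.19 to 0.41 in control males, 0.14 to 0.51 in exposed females and 0.33 to 0.49 in control females. Its difference was -0.10 over both sexes (SE 0.09, interval -0.29 to 0.10). Jag2 had levels of 0.04, -0.20 and -0.75 in exposed males, -0.69, -0.40 and -0.80 in control males, -0.45, -0.76 and -0.53 in exposed females, and -0.58, -0.34 and -0.74 in control females. Exposed males 1 and 2 held its highest levels, exposed male 3 lay among the controls, and the female groups overlapped throughout. The Jag2 difference was 0.15 over both sexes (SE 0.14, interval -0.17 to 0.46), 0.32 in males and -0.03 in females. Without exposed male 1 it was 0.06 over both sexes and 0.15 in males, and without exposed male 3 it was 0.26 over both sexes and 0.55 in males. On the brightest probes, the 0.35 by which the male and female effects of Jag2 differed was the largest among members. It did not pass (limma, adjusted p = 0.883). The second Jag2 probe differed by 0.16 over both sexes, with residual r = 0.90 between the 2 probes over 12 arrays.

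**Figure D2:**
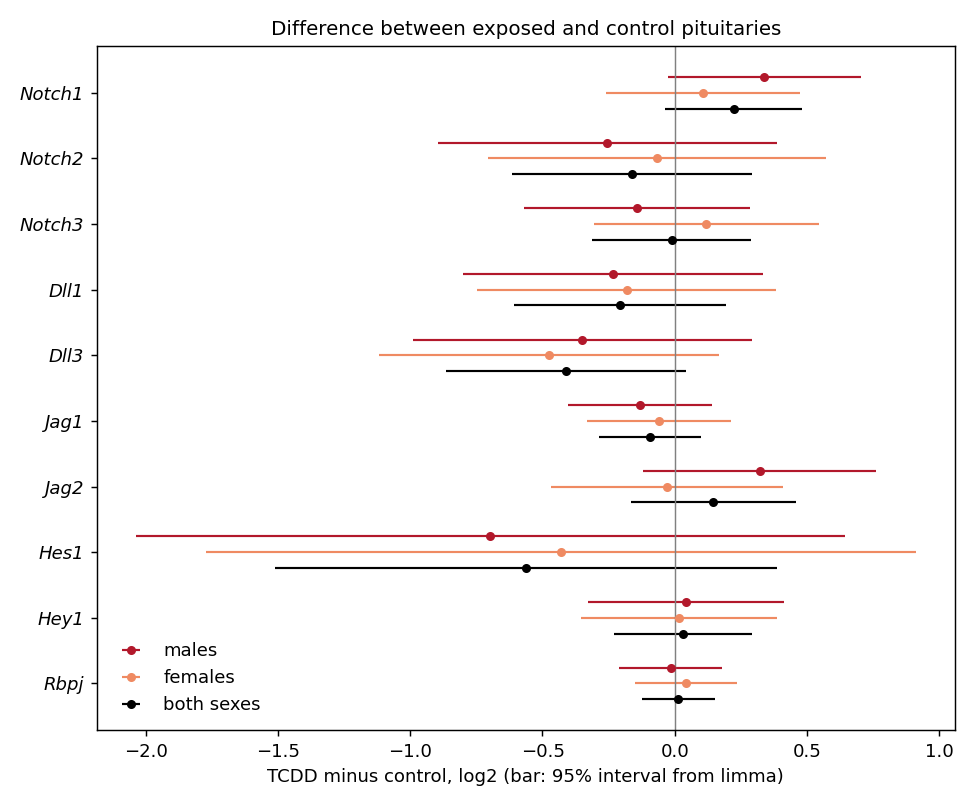
TCDD minus control (log2) for each Notch pathway gene in each sex and over both sexes, with 95% intervals from limma. Every interval spans 0, from the narrow one of Rbpj (-0.12 to 0.15) to the wide one of Hes1 (-1.51 to 0.39 over both sexes).

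Rbpj, the DNA-binding factor through which all the receptors act, was the steadiest member on its brighter probe. Its level ranged from -1.36 to -1.09 in exposed males, -1.25 to -1.23 in control males, -1.18 to -1.12 in exposed females and -1.27 to -1.13 in control females. The difference over both sexes was 0.01 (SE 0.06, interval -0.12 to 0.15, or 0.918-fold to 1.11-fold). Its SD within groups was 0.08, and 6.78% of all genes had a smaller one. The second Rbpj probe, printed above, differed by -0.14 over both sexes and by -0.27 in males (interval -0.50 to -0.03, limma, unadjusted p = 0.0287, adjusted p = 0.507). On that probe all 3 exposed males, at -1.93 to -1.63, lay below all 3 control males, at -1.61 to -1.50. In females it differed by -0.01, and the residuals of the 2 probes had r = -0.10 over 12 arrays, so the probes disagree. Both probes lie on chromosome 5 in rn4, whereas RefSeq on GRCr8 places Rbpj on chromosome 14 and a pseudogene, Rbpjl2, on chromosome 5. Signal of such a copy and of Rbpj itself cannot be told apart with these probes, so the Rbpj level is uncertain.

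Hes1, the repressor that is the best known Notch target, varied most between arrays. The 250 bases before its start in RefSeq on GRCr8 (chr11:84213046-84213295, minus strand) are shown because the gene is a direct target of the Notch and Rbpj complex. Capitals mark TGGGAA, the core bound by Rbpj, searched on both strands. Its 2 matches begin 123 and 109 bases before the start.
Hes1 promoter: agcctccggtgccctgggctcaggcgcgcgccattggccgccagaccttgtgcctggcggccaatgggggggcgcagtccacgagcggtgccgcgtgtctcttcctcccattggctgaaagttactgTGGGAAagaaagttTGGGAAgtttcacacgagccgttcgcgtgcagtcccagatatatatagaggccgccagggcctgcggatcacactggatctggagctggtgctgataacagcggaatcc
TGGGAA stood in 22.1% of 33469 windows of this length in the RefSeq table, and in 4 of 11 windows of the members that had one. Jag2 and Rbpj had 2 windows each. GCGTG, the core of the aryl hydrocarbon receptor site, stood in 25.9% of all windows and in 6 of 11 member windows, with 2 matches before Hes1. CACNAG, the core bound by Hes proteins, stood in 37.2% of all windows and in 3 of 11 member windows, with 4 matches before Hes1. These are matches of letters on either strand and say nothing of binding. The member windows were 53.2% to 83.6% G and C, and the counts were not set against windows of like base content.

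The Hes1 level was -3.65, -1.77 and -2.88 in exposed males, -2.49, -2.30 and -1.42 in control males, -2.59, -0.66 and -2.99 in exposed females, and -1.53, -1.73 and -1.69 in control females. The exposed groups held both the lowest level, in male 1, and the highest, in female 2, a span of 2.99 or 7.95-fold, while the control females lay between -1.73 and -1.53. The SD was 0.95 in exposed males, 0.57 in control males, 1.25 in exposed females and 0.10 in control females. Its pooled SD of 0.83 was larger than that of 93.2% of genes. The difference was -0.56 over both sexes (SE 0.43, interval -1.51 to 0.39, limma, adjusted p = 0.671), which is 0.677-fold with an interval of 0.351 to 1.31. It was -0.70 in males (interval -2.04 to 0.64) and -0.43 in females (interval -1.77 to 0.91). Single arrays moved these values: without exposed female 2 the difference was -0.92 over both sexes and -1.14 in females, without exposed female 3 it was -0.33 over both sexes and 0.03 in females, and without exposed male 1 it was -0.25 in males. A single probe measured Hes1, so no other probe bears on these values.

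Hey1, a related repressor, showed no such spread. It ranged from -3.69 to -3.22 in exposed males, -3.67 to -3.36 in control males, -3.71 to -3.29 in exposed females and -3.70 to -3.45 in control females. The difference over both sexes was 0.03 (SE 0.12, interval -0.23 to 0.29).

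Between control males and control females all 10 genes overlapped on their brightest probe, where 10.6% of all genes did not overlap. Both second probes that disagreed with the first did not overlap: Notch1 lay lower in control males and Rbpj higher, at -1.61 to -1.50 in control males and -1.93 to -1.65 in control females. Their measured differences were -1.09 for Notch1, where no control male was well above background, and 0.24 for Rbpj (limma, unadjusted p = 0.0136 and 0.0473, adjusted p = 0.732 and 0.892). On the second Notch1 probe, control females were 1.255-fold higher with control males raised to the lowest signal well above background. That bound was not tested. The probe was well above background on 2 of 3 control females, so its lack of overlap rests on levels near background. Of the members, 2 were higher in males and 8 lower, with a median of -0.10, and 41.9% of all genes were higher in males. The widest differences were -0.42 for Hes1 (interval -1.76 to 0.92) and -0.29 for Notch1 (interval -0.66 to 0.07).

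Between arrays with and without the ganglion signal, 2 of 10 members did not overlap, a share near that of all genes (15.8%). Jag2 lay between -0.53 and 0.04 on the 6 arrays with the signal and between -0.80 and -0.58 on the other 6. Dll1 lay between -4.77 and -4.07 on the arrays with the signal and between -4.02 and -3.54 on the others. These were the only members with no overlap, Jag2 as 1 gene higher, as were 7.92% of all genes, and Dll1 as 1 gene lower, as were 7.85% of all genes. Notch1 overlapped, at 0.06 to 0.51 with the signal and -0.32 to 0.28 without. Over the 6 arrays without the signal, the TCDD difference over both sexes was -0.06 for Jag2, -0.01 for Dll1, -0.18 for Dll3, 0.01 for Hes1 and 0.18 for Notch1. Each exposed group held a single array there, exposed male 3 and exposed female 2. The values for Hes1, Dll3 and Dll1 average opposite signs: -0.92 in males and 0.95 in females for Hes1, 0.25 and -0.61 for Dll3, and 0.18 and -0.21 for Dll1. In males and females, Jag2 was at -0.01 and -0.10, and Notch1 at 0.28 and 0.07. The Schwann cell and satellite glia list (11 of 12 measured) differed by 0.82 between exposed and control arrays, and the anterior pituitary list by -0.45. The part of these markers in the members' differences was not tested.

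**Figure D3:**
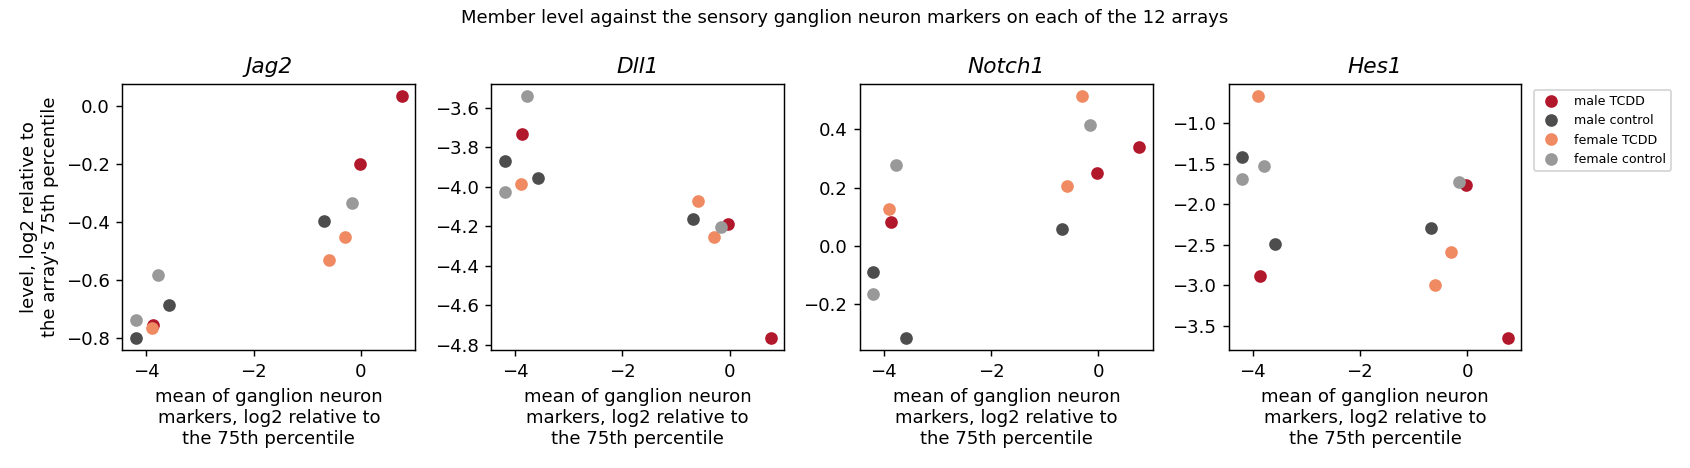
Level of Jag2, Dll1, Notch1 and Hes1 against the mean of the sensory ganglion neuron markers on each of the 12 arrays (both log2 above the array's 75th percentile). Jag2 is higher and Dll1 lower on all 6 arrays whose marker mean is -0.68 or higher, while Hes1 and Notch1 overlap between the 2 sets.

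Exposed male 1 lay at an end of the range for most members. It was the lowest of the 12 arrays for 5 members (Notch2, Dll1, Dll3, Jag1, Hes1) and the highest for 3 (Jag2, Hey1, Rbpj), and it was lowest or highest for 53.85% of all genes. The arrays lay on 3 slides: slide 1 held the 3 control males and exposed male 1, slide 2 the other exposed males and control females 1 and 2, and slide 3 control female 3 and the 3 exposed females. With slide as a fixed block, the difference over both sexes was -0.99 for Hes1, 0.45 for Notch1, 0.41 for Jag2, -0.45 for Notch2, -0.42 for Dll1 and -0.47 for Dll3, and no member passed. Slide 2 held no exposed and control arrays of the same sex, so this fit rests on the comparisons within slides 1 and 3. Within slide 1, where the only exposed array is male 1, the male difference was -1.58 for Hes1, 0.45 for Notch1, 0.66 for Jag2 and -0.80 for Dll3. Within slide 3, where the only control is female 3, the female difference was -0.39 for Hes1, 0.45 for Notch1, 0.16 for Jag2 and -0.14 for Dll3.

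**Figure D4:**
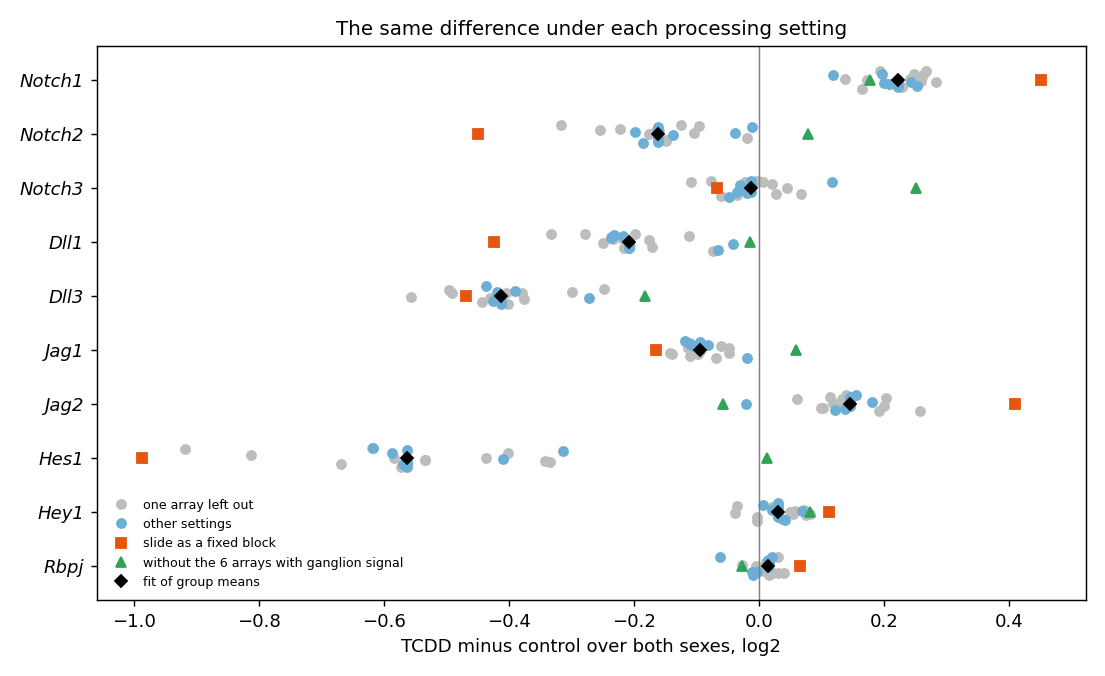
TCDD minus control over both sexes (log2) for each Notch pathway gene under each processing setting: black diamonds are the fit of group means, orange squares the fit with slide as a block, green triangles the 6 arrays without ganglion signal, and circles the remaining settings. Hes1 spreads furthest, from -0.99 with the slide block to 0.01 without the ganglion arrays, a setting that leaves a single exposed array in each sex.

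The rest of the pathway was read from lists of genes by role. Of 54 further genes listed, 44 were measured, and 0 passed in either direction in any of the 5 comparisons (limma). Over both sexes 22 lay above 0 and 22 below, with a median of -0.0014, and 1 had an unadjusted p below 0.05, beside 6.46% of all genes. The count was 1 in males (9.34% of all genes) and 0 in females (2.68%). It was 2 among controls (5.51%) and 2 for the difference of the effect (4.47%). The 1 gene over both sexes was Mfng, a fringe glycosyltransferase that adds sugars to Notch and alters which ligands bind. It differed by -0.44 (SE 0.19, limma, adjusted p = 0.670). Mfng differed by -0.44 in males and by -0.44 in females. The sister enzyme Lfng differed by 0.12.

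The largest differences in the wider lists lay in genes with a wide spread. Dlk2 and Dner, membrane proteins related to Notch ligands, differed by 1.03 and 0.82 over both sexes, with intervals of -0.61 to 2.67 and -0.56 to 2.21. Hes5, a Hes-family target known from neural progenitors, differed by 0.89 (interval -0.55 to 2.32) and was well above background on 7 of 12 arrays. All 3 lay higher on every array with ganglion signal than on every array without: Dlk2 at -0.66 to 0.58 against -3.15 to -2.34, Dner at -0.80 to 0.50 against -2.57 to -1.86, and Hes5 at -6.04 to -4.52 against -8.13 to -6.19. Rfng and Dtx4 did the same, and Psenen, Ncstn, Aph1a, Ctbp2 and Dtx2 lay lower on every array with the signal. That makes 10 of 44 that did not overlap, beside the 15.8% of all genes.

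Other named genes stayed closer to 0. Dlk1, a non-canonical ligand, differed by -0.37 (interval -0.82 to 0.08). The receptor Notch4 differed by -0.03 and the endothelial ligand Dll4 by -0.17. Mib1, the ubiquitin ligase that drives ligand endocytosis, differed by 0.14, and the protease Adam10 by 0.08. Maml1, the Mastermind co-activator, differed by -0.0050. Among inhibitors of the pathway, Numb differed by 0.18, Dtx4 by 0.33 and Nrarp, itself a Notch target, by 0.16. Among target genes, Hes6 differed by 0.03, Hey2 by 0.03 and Heyl by 0.22.

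**Figure D5:**
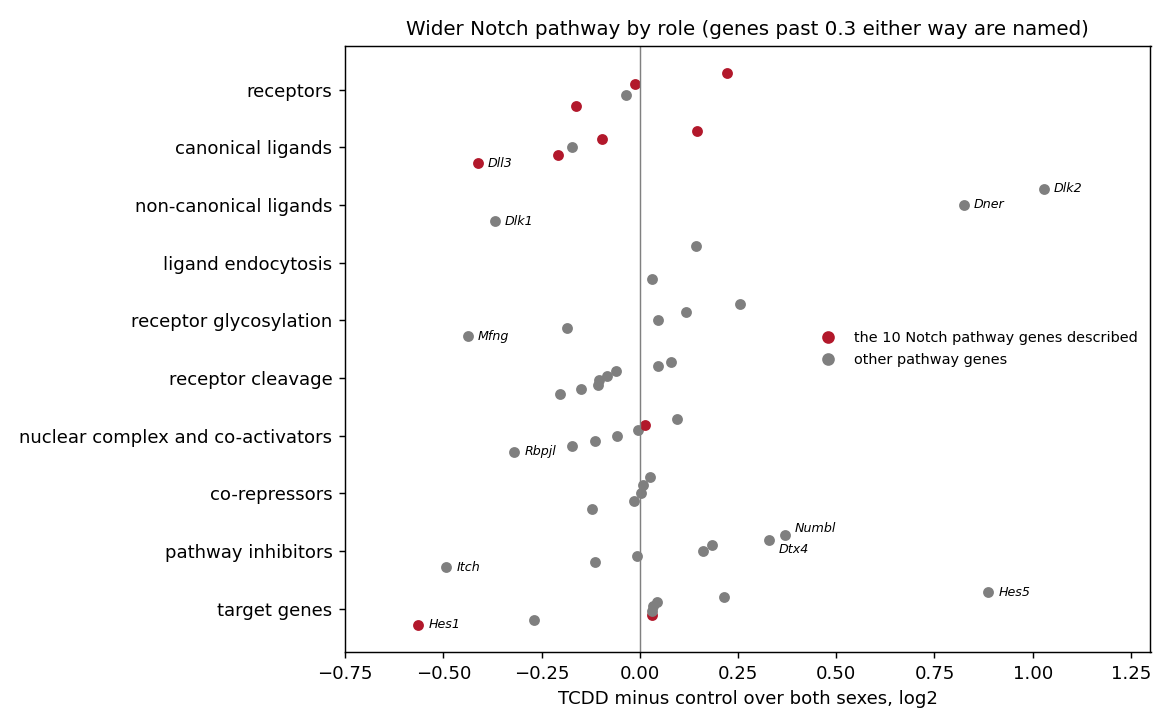
TCDD minus control over both sexes (log2) for the Notch pathway genes measured, by role, with the 10 members in red. Most genes lie close to 0, with Dlk2 at 1.03, Hes5 at 0.89 and Dner at 0.82 on the right and Hes1 at -0.56 furthest left.

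For each member, the genes most like it were found by Pearson correlation of residuals from the group means over the 12 arrays, among 13395 named genes. Arrays share the ganglion signal and overall intensity, and the values are a description. Hes1 was near to Alox12 (r = 0.99) and Arsj (r = 0.93). Jag2 was nearest to Lrfn4 (r = 0.99), Dll1 to Galnt3 (r = 0.99) and Dll3 to Mageh1 (r = 0.98). The nearest gene was Pcyox1 for Notch1 (r = 0.97), C3ar1 for Notch2 (r = 0.96) and Pole for Notch3 (r = 0.97). It was Pds5b for Jag1 (r = 0.98), Rffl for Hey1 (r = 0.93) and Elf3 for Rbpj (r = 0.98).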

How the data were processed

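Cy3-labelled RNA from each sample was hybridised to 1 array, per the labels' protocols. Linear spot intensity was read from the scanner output that the authors deposited, written by Agilent Feature Extraction 10.7.1.1 per the file headers (9.5.1.1 per the submitters' processing notes). A value table deposited beside it was also intensity. Every column of it had the same median, 83.5, and ranked probes as the scanner values did (Spearman correlation 1.0), so a linear scale and quantile normalization were inferred, and no source used here states them. Well-above-background flags (0 or 1) came with the deposited files.

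Control spots and outlier flags were left out, log2 was taken of the processed intensity, and each array's 75th percentile was subtracted. A probe was kept if well above background on at least 3 of 12 arrays with at least 10 values, which left 22430 of 30367 probes. Each of 19381 genes was read from its brightest kept probe. All 14 member probes were kept. Names came from the reference table by accession for 18006 probes and by symbol for 2654, and 9707 kept the files' name. Each array had 42877 non-control spots, of which 75.1% to 78.4% were well above background and 0 saturated. Precision is limited by there being 3 arrays per group. Group means were fitted in limma 3.58.1 (R 4.3.3) with a trended prior, adjusted by Benjamini-Hochberg over all genes at 0.05, and the code was tested on simulated data. Standard errors and intervals come from this fit.

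Named genes are every member, a fixed set of pathway genes, any pathway gene that passed, and the 3 nearest patterns of each member, of which the text gives the nearest and, for Hes1, 1 more. Some genes that this rule names are not reported here. Genes at the ends of a list, and those not overlapping between arrays with and without ganglion signal, were named after their values were seen. The members and lists were chosen with earlier results of these data known. Alternatives varied background correction, scaling, filter, probe choice, slide, replicate block, the ganglion signal and single arrays.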

Additional observations from a re-analysis of the deposited data

How the results depend on the processing

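No Notch pathway gene passed under any setting tried, and over 24 settings the lowest adjusted p of any member was 0.0614 (limma), for Dll3 in males within slide 1. That value, like the count within slide 1 below, sets the single array of exposed male 1 against 3 controls and assumes that it varies like the other arrays, and within slide 3 the lone array is control female 3. With slide as a fixed block, the TCDD differences rest on these same single arrays, so the counts below share that limit. Of 1170 member differences under alternatives, 112 had the other sign and 60 moved by more than the SD within groups. The counts over all genes moved more. Over both sexes 4 genes passed, against 15 with slide as a fixed block, 11 with the mean of the ganglion markers as covariate, and 0 when arrays with ganglion signal were left out (limma, 543 at an unadjusted p below 0.05). Leaving out 1 array at a time gave 4 to 9, with 9 without exposed male 1, 7 without exposed male 3 and 7 without control female 1. In males 2 passed, against 1 when probes had to exceed background on all arrays, 26 with the slide block, 276 within slide 1, 4 with the covariate, 0 without the ganglion arrays (932 unadjusted) and 2 to 3 with 1 array left out. In females 2 passed, against 1 with normexp and quantile normalization, 1 with the all-array filter, 0 within slide 3 (531 unadjusted), 4 with the covariate, 0 without the ganglion arrays (488 unadjusted) and 2 to 3 with 1 array left out. The difference of the effect between sexes gave 0 genes, against 6 with the slide block. Between control males and females 2 passed, against 1 with normexp, 1 with the all-array filter, 10 with the slide block, 0 without the ganglion arrays (812 unadjusted) and 1 to 2 with 1 array left out, the 1 being without control male 2. The cause of these shifts was not tested, beyond the fewer arrays or genes that some settings hold. With replicate number as a block, 2 genes passed over both sexes. The labels do not say whether the numbers pair the arrays. Of 18 same-numbered pairs, 8 correlated above 0.1 (r from -0.70 to 0.75), and r ran from -0.73 to 0.69 in the 36 other pairs. Arrays share the ganglion signal, so these correlations cannot decide whether the numbers are pairs. As a random block, slide had a correlation of 0.18. Levels near background limit the second Notch1 probe and Hes5.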
